A study of Mus musculus with 30 samples.

Results

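Expression of 7 genes used to mark type 1 conventional dendritic cells (cDC1) was followed in mouse dendritic cells grown from bone marrow. The genes, Batf3, Id2, Xcr1, Cadm1, Itgae, Wdfy4 and Naaa, were taken by symbol from the 25611 rows of the deposited count table. Each symbol stood on 1 row, and all 7 were among the 14808 genes tested. Cells carrying a knockout of Rubcn (KO) or the wild-type gene (WT) were compared. Rubcn encodes Rubicon, which LC3-associated phagocytosis requires, a pathway that conjugates LC3 to the membrane of phagosomes. All cultures received FLT3L at 200 ng/ml for 6 to 7 days. In each genotype 1 group was left untreated, 2 groups received OVA protein (ovalbumin), and 2 groups received apoptotic cells of the human T leukaemia line Jurkat, each for 30 min in 1 group and 4 h in the other. There were 3 libraries in every group and 30 over the 10 groups, numbered in the sample titles. The mouse strain, age and sex, and how the knockout was made, are not stated in the sources used here. The titles do not say whether the libraries of a group came from separate mice or cultures, so p-values measure only the spread between these libraries.

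cDC1 are the dendritic cells best known for cross-presentation, the loading of peptides from engulfed material such as dead cells onto MHC class I for CD8 T cells. Their development depends on the transcription factors Irf8, Id2 and Batf3, and FLT3L cultures of bone marrow yield them beside cDC2 and plasmacytoid dendritic cells. Maturing dendritic cells of each type change much of their transcriptome, so that a gene that marks a resting cDC1 need not mark a mature one.

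Levels are given in CPM, the share of a library's counts scaled by TMM, a method that corrects totals for a few genes taking many reads. Total counts ran from 9.73 M to 51.6 M with a median of 44.9 M, and the shallowest library, KO with 30 min OVA replicate 3, still held 180 counts of Batf3, the fewest of any member in any library. The TMM factors of the 6 libraries given Jurkat cells for 4 h were 0.765 to 0.842, against 1.03 to 1.07 in all others. Rubcn was lower in KO in all 5 conditions with no overlap between libraries, at 70.4 to 75.8 CPM in untreated KO against 95.6 to 104.6 CPM in WT. Most of its reads thus remained, and a count over the whole gene checks the genotype labels only in part.

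The members fall into regulators, surface proteins and proteins inside the cell. Batf3 (Entrez 381319, mm10 chromosome 1, 191098414 to 191108943, plus strand) is an AP-1 family factor that partners Irf8. Id2 (15902, chromosome 12, 25093799 to 25096092, minus strand) is an inhibitor of E proteins such as the plasmacytoid factor Tcf4. Xcr1 (23832, chromosome 9, 123852315 to 123862029, minus strand) is the receptor for the chemokine Xcl1. Cadm1 (54725, chromosome 9, 47530170 to 47853391, plus strand) is an adhesion molecule. Itgae (16407, chromosome 11, 73090595 to 73147449, plus strand) encodes CD103, the alpha chain that pairs with integrin beta 7 and binds E-cadherin. Wdfy4 (545030, chromosome 14, 32959547 to 33185066, minus strand) is a BEACH domain protein required for cross-presentation of cell-associated antigen. Naaa (67111, chromosome 5, 92257660 to 92278181, minus strand) is a lysosomal hydrolase of fatty acid amides. In the GENCODE M21 annotation Haspin lies inside Itgae and Lrrc18 inside Wdfy4, each on the opposite strand and with 0 bases in the exons of its host.

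RefSeq promoter sequences (build GRCm38.p6) were at hand for 5 of the 7 members. Shown here are the 250 bases before the start of 3 of them, 5′ to 3′ on the gene's strand: Xcr1 (chr9:123862030-123862279, minus), which rose after 4 h of Jurkat cells, and Wdfy4 (chr14:33185067-33185316, minus) and Naaa (chr5:92278182-92278431, minus), which fell. Capitals mark a match to the E protein box described next.
Xcr1: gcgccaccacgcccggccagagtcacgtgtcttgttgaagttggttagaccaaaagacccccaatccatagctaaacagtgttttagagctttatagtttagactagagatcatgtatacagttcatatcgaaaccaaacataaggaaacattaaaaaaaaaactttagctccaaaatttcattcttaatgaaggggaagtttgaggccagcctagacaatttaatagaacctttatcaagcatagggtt
Wdfy4: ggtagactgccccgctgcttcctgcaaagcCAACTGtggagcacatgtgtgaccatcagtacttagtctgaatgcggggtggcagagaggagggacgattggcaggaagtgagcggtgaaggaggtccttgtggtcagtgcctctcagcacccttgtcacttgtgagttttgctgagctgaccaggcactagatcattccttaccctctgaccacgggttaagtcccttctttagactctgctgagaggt
Naaa: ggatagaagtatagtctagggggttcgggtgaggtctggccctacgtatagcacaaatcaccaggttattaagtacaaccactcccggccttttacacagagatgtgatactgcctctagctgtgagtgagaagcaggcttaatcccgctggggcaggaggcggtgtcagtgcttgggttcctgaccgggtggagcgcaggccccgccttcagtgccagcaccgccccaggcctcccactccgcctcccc
The windows of Batf3 and Id2 overlapped exons of GENCODE transcripts by 163 and 161 bases and are not shown. The Xcr1 window was AT-rich, with 38.8% G or C (9.7% of 32851 promoters were lower, median 52.4%), and Batf3 lay at the other end with 76.0% (96.7% were lower). Id2 had 62.8%, Naaa 59.2% and Wdfy4 54.4%. The E protein box CAGNTG, present on either strand in 44.8% of all windows, was found in Id2 (CAGCTG, bases -196 to -191 from the start) and in Wdfy4 (CAACTG, -220 to -215). No match was found in the 5 windows to the AP-1 element TGANTCA (6.75% of windows), to the composite AP-1 and IRF element (AICE, 0.198%), which holds the AP-1 letters, or to the interferon-stimulated response element (ISRE, 2.98%), each searched on both strands.

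The untreated cultures expressed every member, and markers of other dendritic cells too. Per kilobase of exon, untreated WT cells held 185 CPM of Naaa, 166 of Id2, 165 of Wdfy4, 20.2 of Xcr1, 11.8 of Batf3, 8.08 of Cadm1 and 5.12 of Itgae, so that the members spanned a wide range of levels. Irf8 stood at 2215 CPM and Clec9a, a cDC1 receptor for dead cells, at 151 CPM. Summed over lists of markers, untreated WT libraries held 1710 to 1765 CPM of cDC2 genes and 2244 to 2269 CPM of plasmacytoid genes. The cultures were thus mixed, and in such bulk samples fewer cells of a type and less RNA per cell cannot be told apart.

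**Figure D1:**
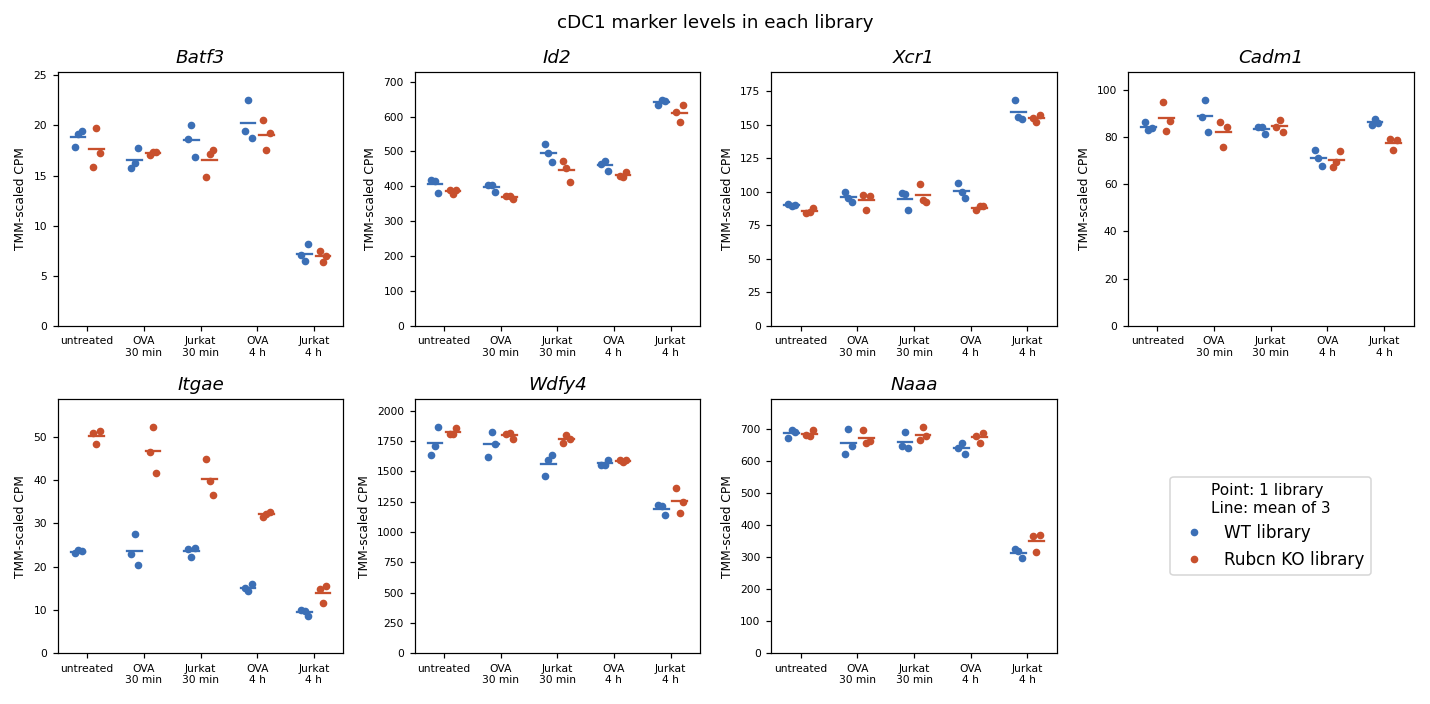
Level of each of the 7 cDC1 markers in every library (vertical axes, TMM-scaled CPM from 0) across the 5 conditions, with WT in blue, KO in red and a line at the mean of 3 libraries. Itgae lies higher in KO in every condition; after 4 h of Jurkat cells Xcr1 and Id2 lie above, and Batf3, Naaa, Itgae and Wdfy4 below, the untreated libraries.

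The effect of Rubcn loss on the markers was compared first, within each condition. Itgae was higher in KO in all 5 conditions, by 2.01 to 2.14-fold in 3 of them, 1.71-fold after 30 min and 1.48-fold after 4 h of Jurkat cells, while each of the other 6 members differed by less than 0.20 on the log2 scale in every condition. Untreated WT libraries held 23.1, 23.8 and 23.5 CPM of Itgae, and untreated KO libraries 50.8, 48.3 and 51.4 CPM. After 30 min of OVA the values were 22.9, 27.5 and 20.5 CPM in WT and 46.4, 52.2 and 41.6 CPM in KO. The KO libraries were all above the WT libraries in both conditions. With Jurkat cells for 30 min WT held 24.1, 22.3 and 24.3 CPM and KO 44.8, 39.7 and 36.4 CPM. With OVA for 4 h the levels were 15.0, 14.3 and 16 CPM in WT and 31.4, 32.1 and 32.7 CPM in KO. With Jurkat cells for 4 h they were 9.89, 9.78 and 8.56 CPM in WT and 14.9, 11.6 and 15.5 CPM in KO, the narrowest gap, and again without overlap.

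The log2 fold change of Itgae, KO over WT, was 1.10 in untreated cells (SE 0.0878; edgeR quasi-likelihood test with Benjamini-Hochberg adjustment over all genes, FDR 6.33e-10). It was 1.01 after 30 min of OVA (FDR 8.42e-09), 0.77 after 30 min of Jurkat cells (FDR 9.35e-07), 1.08 after 4 h of OVA (FDR 2.7e-09) and 0.57 after 4 h of Jurkat cells (SE 0.112, FDR 0.000478). Itgae was the 1 member called in untreated cells, where 9.97% of all genes were called in either direction. Of all genes, 215 (1.45%) were called higher in KO in all 5 conditions, and 2.31% had a larger change than Itgae in either direction in untreated cells. Haspin, the gene inside Itgae, stood at 26.2 CPM in WT and 26.5 CPM in KO without treatment and was called in no condition (log2 0.02 to 0.12).

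**Figure D2:**
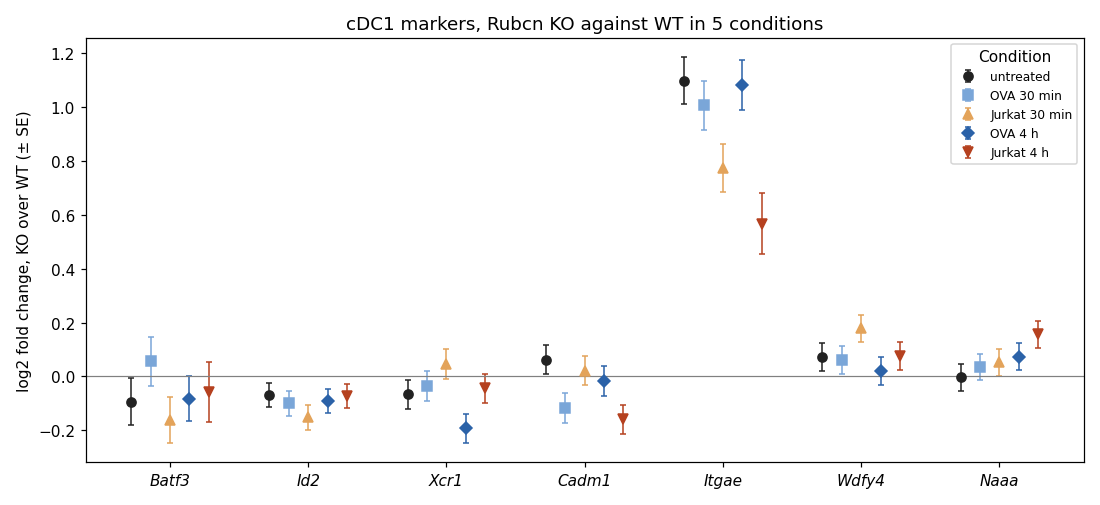
Log2 fold change of each member, KO over WT, in the 5 conditions (points, with SE bars from the edgeR fit). Itgae lies between 0.57 and 1.10, and the other 6 members lie between -0.19 and 0.18.

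The 2 regulators differed little between the genotypes. Batf3 was called in no condition, with log2 fold changes of -0.16 to 0.06, and its libraries overlapped throughout. Untreated WT held 18.8 ± 0.854 CPM of Batf3 (SD, n = 3) and untreated KO 17.6 ± 2 CPM. Id2 had log2 fold changes of -0.15 to -0.07 over the 5 conditions and passed the test only after 30 min of Jurkat cells, with 520.5, 495.9 and 470.6 CPM in WT and 473.3, 451.2 and 413.6 CPM in KO. These libraries overlapped, the FDR was 0.0306, and a fit of those 6 libraries alone gave 0.155. Without Jurkat 30 min KO replicate 2 or 3, or WT replicate 1 or 2, the FDR of Id2 was 0.0591, 0.242, 0.177 and 0.0904. After OVA Id2 was not called at either time. The share of all genes whose libraries do not overlap was not counted, so a lack of overlap is only described. The KO libraries of Id2 lay below the WT libraries without overlap at both times. They held 364.9 to 372.7 against 383.7 to 403.5 CPM at 30 min, and 426.9 to 440.8 against 443.5 to 473.7 CPM at 4 h.

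Among the surface proteins, Xcr1 passed the test only after 4 h of OVA. WT libraries then held 106.7, 100.2 and 95.7 CPM of Xcr1, all above the KO libraries at 86.1, 89.5 and 89.2 CPM (log2 -0.19, edgeR FDR 0.0171). With Itgae it was 1 of 2 members called there, where 12.6% of all genes were called. Scaling Xcr1 to total counts gave an FDR of 0.0638, and leaving out KO or WT replicate 1 gave 0.0877 and 0.131. Cadm1 was called lower after 4 h of Jurkat cells, at 79.1, 74.4 and 78.6 CPM in KO against 85.3, 87.7 and 86.2 CPM in WT (log2 -0.16, FDR 0.0354). That call of Cadm1 was lost with total counts (FDR 0.285) and without Jurkat 4 h KO replicate 2 or 3 or any 1 WT library (FDR 0.0531 to 0.15).

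Wdfy4 and Naaa were each called higher in KO in 1 condition. Wdfy4 was called higher in KO after 30 min of Jurkat cells, at 1735, 1801 and 1772 CPM against 1461, 1596 and 1634 CPM in WT, without overlap (log2 0.18, edgeR FDR 0.0264). The call of Wdfy4 was lost in a fit of those 6 libraries alone (FDR 0.0522) and without KO replicate 2 or 3 or WT replicate 1 or 2 (FDR 0.0554 to 0.171). Together with Itgae and Id2 this made 3 members called at that time, where 9.25% of all genes were. Naaa was called higher after 4 h of Jurkat cells, at 366.5, 314.7 and 368.4 CPM in KO against 325.5, 318.7 and 297.7 CPM in WT, which overlapped (log2 0.16, FDR 0.0241). Without KO replicate 1 or 3, or WT replicate 3, the FDR of Naaa was 0.127, 0.142 and 0.135. With total counts Wdfy4 also passed at that time (log2 0.15, FDR 0.022). Itgae, Cadm1 and Naaa were the 3 members called then, where 22.9% of all genes were called, and Itgae was the 1 member called after 30 min of OVA, where 12.4% were.

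A list of 23 other genes associated with cDC1 was read from the same fit. In untreated cells 1 was called higher and 3 lower in KO, with a median log2 change of -0.01, equal to that of all genes, and without KO replicate 1 or WT replicate 3 it was 1 and 1. After 30 min of OVA 1 was called higher and 2 lower, with total counts 3 and 1. Leaving out KO replicate 2 or 3 or WT replicate 2 or 3 of that condition gave 1 and 1. After 30 min of Jurkat cells 6 were called higher and 1 lower, which became 3 and 1 without KO replicate 2 or WT replicate 1, 4 and 0 without KO replicate 3 and 5 and 0 without WT replicate 2. After 4 h of OVA 4 were called higher and 2 lower, but 3 and 6 in a fit of those 6 libraries alone and 4 and 4 by DESeq2. Without KO replicate 2 the counts were 1 and 2, without KO replicate 3 or WT replicate 2 they were 2 and 2, and without WT replicate 1 they were 3 and 1. After 4 h of Jurkat cells 4 were called higher and 6 lower, with total counts 6 and 2, and in a fit of those 6 libraries alone or without KO replicate 2 the counts were 4 and 2. Without WT replicate 2 they were 3 and 2. The counts of this list thus turned on single libraries in every condition. Of all genes 9.97% were called in untreated cells, 12.4% after 30 min of OVA and 9.25% after 30 min of Jurkat cells. After 4 h it was 12.6% with OVA and 22.9% with Jurkat cells. Clec9a was the 1 gene of the list called lower in KO in all 5 conditions, as 0.831% of all genes were, at 117 ± 1.59 CPM in untreated KO against 151 ± 0.748 CPM in the wild type (SD, n = 3), a log2 change of -0.37 (edgeR FDR 1.69e-05). Its change ran from -0.52 after 4 h of Jurkat cells to -0.21 after 30 min, and that smallest change of Clec9a was lost without Jurkat 30 min KO replicate 3 (FDR 0.0529) or WT replicate 2 (0.06). Gcsam, a signalling adaptor of lymphocytes that cDC1 also express, was called higher in all conditions but the untreated one, most after 4 h of Jurkat cells (9.03 against 4.97 CPM, log2 0.85). After 4 h of OVA the call of Gcsam (log2 0.24) was lost without KO replicate 2 (FDR 0.0508).

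Markers of some other cells differed between the genotypes together with Itgae. All 7 basophil or mast cell genes were called higher in KO in all 5 conditions (4 under the filter of 5 CPM in 3 libraries). Their sum ran from 22.2 to 28.6 CPM in untreated WT libraries and from 56.6 to 87.5 CPM in KO. Of 6 stromal genes 4 were called higher in untreated KO (sums of 537 to 617 and 686 to 862 CPM). The sum of 4 B cell genes was 6.28 to 7.31 CPM in untreated WT and 7.81 to 9.07 CPM in KO. That of 10 cDC2 genes was 1710 to 1765 CPM in untreated WT and 1779 to 1906 CPM in KO. The cDC2 sums were also higher in KO without overlap after OVA at 30 min and 4 h and after 4 h of Jurkat cells. After 30 min of Jurkat cells they overlapped. Single cDC2 genes were split: in KO, 2 of 10 passed upward and 2 downward, both untreated and after 30 min of OVA. With Jurkat cells the split was 2 up and 1 down at 30 min, and 5 and 1 at 4 h. After 4 h of OVA it was 2 and 0. The sum of 10 monocyte or macrophage genes overlapped between untreated WT (3778 to 4189 CPM) and KO (3910 to 4491 CPM). Of 8 plasmacytoid genes 3 were called lower and 1 higher in untreated KO (2244 to 2269 CPM in WT, 1997 to 2158 in KO), and of 7 genes of mature dendritic cells 5 were lower (569 to 615 and 436 to 442 CPM). These counts in untreated cells stand beside 9.97% of all genes called there. Without untreated KO replicate 2 or 3 or WT replicate 2 or 3, 1 plasmacytoid gene was called lower. Of the mature genes 3 were called lower without KO replicate 1 or 2 or WT replicate 2, and 2 without KO or WT replicate 3. The sum of 6 genes of natural killer or innate lymphoid cells overlapped between untreated WT (260 to 319 CPM) and KO (291 to 340 CPM), and the defining genes Ncr1, Klrb1c and Gata3 were under 1 CPM in untreated cells. The part of these cells in the difference of Itgae was not tested.

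Treatment was compared with untreated cells next, beginning with OVA. After 30 min the edgeR test called 0 of 7 members in WT and 0 in KO, where 10.7% and 3.77% of all genes were called, and 1 member in each had an unadjusted p under 0.05. DESeq2 called 0 in both as well. After 4 h of OVA 5 members were called in WT and 4 in KO, where 23.5% and 11.6% of all genes were called. All 5 moved by less than 0.7 on the log2 scale.

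Itgae moved most after 4 h of OVA. It fell from 23.1 to 23.8 CPM in untreated WT libraries to 14.3 to 16 CPM (log2 -0.63, SE 0.0948, edgeR FDR 1.07e-05), and from 48.3 to 51.4 CPM in untreated KO to 31.4 to 32.7 CPM (log2 -0.65, SE 0.0859, FDR 4.67e-06). Cadm1 fell by 0.25 in WT (FDR 0.00111) and by 0.33 in KO (FDR 0.000123), to 71.1 ± 3.52 and 70.3 ± 3.46 CPM (SD, n = 3). Id2 rose by 0.18 in WT (FDR 0.00335) and by 0.16 in KO (FDR 0.016), a KO call lost without OVA 4 h KO replicate 3 (FDR 0.0744) or untreated KO replicate 2 (FDR 0.073). Wdfy4 fell by 0.20 in KO (FDR 0.00936). In WT Wdfy4 fell by 0.15 (FDR 0.0353), a call lost without any 1 of the 3 WT libraries of OVA 4 h or without untreated WT replicate 2 or 3 (FDR 0.0535 to 0.246). Xcr1 rose by 0.16 in WT (FDR 0.027), a call lost with total counts (FDR 0.0541) and without OVA 4 h WT replicate 1 or 2 or untreated WT replicate 2 or 3 (FDR 0.0566 to 0.159). In KO the log2 change of Xcr1 was 0.04 (FDR 0.73). The edgeR interaction test of a difference between the genotypes in the response to OVA called 0 members at 30 min and 0 at 4 h, where 0% and 0.0405% of all genes were called. At an unadjusted p under 0.05 it held 1 and 0 members, and DESeq2 called 0 at both times.

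Apoptotic Jurkat cells moved Id2 within 30 min. Its level was 419.4, 415.0 and 381.9 CPM in untreated WT and 520.5, 495.9 and 470.6 CPM after 30 min, without overlap (log2 0.29, SE 0.0450, edgeR FDR 1.74e-05). In KO it was 390.3, 377.9 and 390.5 CPM untreated and 473.3, 451.2 and 413.6 CPM after 30 min, also without overlap (log2 0.21, FDR 0.00157). Set against OVA at the same time, Id2 was higher with Jurkat cells by 0.32 in WT (FDR 5.61e-06) and by 0.27 in KO (FDR 0.000198). The summed level of 19 T-lineage genes, followed because reads of the human cells can align to mouse genes, was 74.5 to 80.8 CPM in untreated WT and 131 to 137 CPM after 30 min, and 78.9 to 85.5 and 104 to 117 CPM in KO. Its part in the rise of Id2 was not tested.

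Id2 and Wdfy4 were the 2 members called in WT at 30 min, where 28.7% of all genes were called, and Id2, Xcr1 and Itgae the 3 called in KO, where 17% were. Wdfy4 fell by 0.15 in WT (edgeR FDR 0.0265), and this was lost in a fit of those 6 libraries alone (FDR 0.077) and without Jurkat 30 min WT replicate 1 (0.183) or untreated WT replicate 3 (0.209). Xcr1 rose by 0.18 in KO (FDR 0.0203), lost in a fit of the 6 libraries alone (0.0628) and without Jurkat 30 min KO replicate 1 (0.187) or untreated KO replicate 1 (0.0626) or 2 (0.064). Itgae fell by 0.32 in KO (FDR 0.00962), lost without Jurkat 30 min KO replicate 3 (FDR 0.0653). The edgeR interaction test called 0 members at 30 min (smallest FDR 0.54, Itgae; 1 member at an unadjusted p under 0.05; 0 by DESeq2) and 0.00675% of all genes.

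After 4 h of Jurkat cells the markers moved in opposite directions. Xcr1 and Id2 rose in both genotypes, Batf3, Naaa, Itgae and Wdfy4 fell in both, and Cadm1 had a log2 change of 0.03 in WT and -0.19 in KO. The edgeR test called 6 members in WT and all 7 in KO, but it also called 79.5% and 78.5% of all genes, so the number of members called is near the background; their directions and sizes follow. Over the 7 members the median log2 change was -0.54 in both genotypes, beside -0.02 and -0.03 over all genes.

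Xcr1 was 90.6, 89.1 and 90.1 CPM in untreated WT and 168.5, 155.8 and 154.6 CPM after 4 h. In KO the libraries held 84.3, 85.2 and 88.1 CPM of Xcr1 untreated and 155.3, 151.8 and 157.5 CPM after 4 h. The log2 changes were 0.83 in WT (SE 0.0544, edgeR FDR 2.38e-14) and 0.85 in KO (FDR 1.42e-14), and the treated libraries lay above every other library of the study. Id2 rose to 632.3, 647.3 and 645.6 CPM in WT and 613.2, 584.6 and 634.4 CPM in KO, likewise its highest levels. Its log2 change was 0.66 in both genotypes (FDR 5.65e-14 in WT, 6.69e-14 in KO). Scaled to total counts, Xcr1 rose by 0.43 in WT and 0.51 in KO and Id2 by 0.26 and 0.32, each still called.

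Batf3 fell, the opposite way to Id2, the other regulator among the members. Untreated WT held 17.8, 19.2 and 19.4 CPM of Batf3 and treated WT 7.06, 6.43 and 8.14 CPM (log2 -1.38, SE 0.0986, edgeR FDR 1.55e-13). KO fell from 15.8, 19.8 and 17.3 CPM to 7.47, 6.33 and 6.97 CPM of Batf3 (log2 -1.35, FDR 2.8e-13). In both genotypes the treated libraries lay below every library of the other 8 groups, and the 8 groups overlapped with their neighbours when ordered by level.

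Naaa and Wdfy4, the genes for proteins inside the cell, fell too. Naaa was 671.0, 696.6 and 692.4 CPM in untreated WT and 325.5, 318.7 and 297.7 CPM after 4 h (log2 -1.13, SE 0.0506, edgeR FDR 2.39e-18), and in KO it fell from 680.2, 678.2 and 697.9 to 366.5, 314.7 and 368.4 CPM (log2 -0.97, FDR 9.53e-17). Wdfy4 fell by less, from 1737 ± 116 to 1191 ± 47.3 CPM in WT and from 1826 ± 27.5 to 1254 ± 105 CPM in KO (SD, n = 3), a log2 change of -0.54 in both genotypes (FDR 8.85e-11 and 1.1e-10). Treated libraries lay below all untreated ones for Naaa and for Wdfy4.

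Among the members, the response at 4 h differed most between the genotypes for Itgae, which passed the test of that difference. Itgae dropped from 23.1, 23.8 and 23.5 to 9.89, 9.78 and 8.56 CPM in WT (log2 -1.31, SE 0.105, edgeR FDR 2.04e-12) and from 50.8, 48.3 and 51.4 to 14.9, 11.6 and 15.5 CPM in KO (log2 -1.84, SE 0.0945, FDR 7.08e-17). The difference between these responses was -0.53 (SE 0.143, interaction FDR 0.0311), and Itgae was the 1 member called in that test, where 4.26% of all genes were. The call was lost without any 1 of 8 of the 12 libraries (Jurkat 4 h KO replicate 2, Jurkat 4 h WT replicates 1 and 2, untreated KO replicates 1 and 3, and each untreated WT library), with FDRs of 0.0509 to 0.0975 and a difference between -0.54 and -0.41. Cadm1 changed by 0.03 in WT (FDR 0.567), and in KO fell by 0.19 (FDR 0.00265), an interaction of -0.22 (FDR 0.0963). Scaled to total counts, Cadm1 fell by 0.37 in WT (FDR 2.29e-07), and that scaling shifted the median of all genes to -0.42 (WT) and -0.37 (KO). Batf3, Id2, Xcr1 and Wdfy4 had interactions between 0.00 and 0.03 in size, and Naaa one of 0.16 (FDR 0.212), called without Jurkat 4 h KO replicate 2 (FDR 0.0425).

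**Figure D3:**
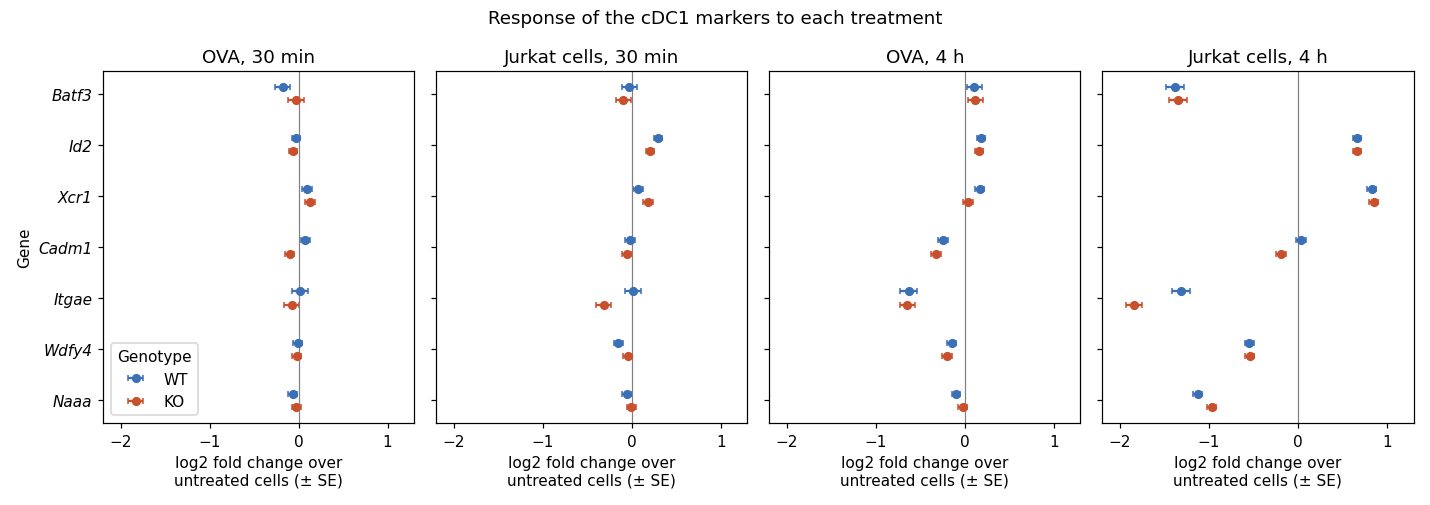
Log2 fold change over untreated cells of the same genotype (points, with SE bars from the edgeR fit) for each member after each treatment (OVA or apoptotic Jurkat cells) at each time, WT in blue and KO in red. At 4 h of Jurkat cells Xcr1 and Id2 lie above 0, and Batf3, Naaa, Itgae and Wdfy4 below it in both genotypes, with the widest gap between genotypes at Itgae (-1.31 and -1.84).

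Set against OVA at the same 4 h, all 7 members were called in both genotypes, where 77.5% of all genes were in WT and 76.4% in KO. The other 6 kept the direction seen against untreated cells, with log2 values in WT of -1.49 for Batf3, -1.03 for Naaa, -0.68 for Itgae, -0.40 for Wdfy4, 0.48 for Id2 and 0.66 for Xcr1. In KO the values were -1.47 for Batf3, -0.95 for Naaa, -1.20 for Itgae, -0.34 for Wdfy4, 0.50 for Id2 and 0.81 for Xcr1. With total counts Id2 stood at 0.09 in WT and was not called (FDR 0.0553). These comparisons share the Jurkat libraries with those above. Cadm1 was higher with Jurkat cells than with OVA by 0.28 in WT (edgeR FDR 3.47e-05) and by 0.14 in KO (FDR 0.0239). With total counts Cadm1 turned to -0.11 in WT, not called (edgeR FDR 0.0666), and to -0.20 in KO (FDR 0.000921). The KO call was also lost without the filter on low counts (FDR 0.0744) and without Jurkat 4 h KO replicate 1 or 3 or OVA 4 h KO replicate 1 or 2 (FDR 0.0697 to 0.136). At 30 min 24.3% of all genes were called in WT and 10.2% in KO; beside Id2, Wdfy4 was called in WT (log2 -0.14, FDR 0.0431), a call lost in a fit of the 6 libraries alone (FDR 0.0862) and without Jurkat 30 min WT replicate 1 or 2 or OVA 30 min WT replicate 2 or 3 (FDR 0.0616 to 0.257).

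The other cDC1-associated genes were also divided at 4 h of Jurkat cells, in a split near that of all genes. The test called 79.5% (WT) and 78.5% (KO) of all genes. Called genes that rose numbered 5761 (WT) and 5548 (KO), and those that fell 6017 (WT) and 6071 (KO). Of 23 genes, 12 were called higher and 11 lower in each genotype, with medians of 0.15 in WT and 0.19 in KO. With total counts in place of TMM 8 were called higher and 13 lower in WT, and 7 higher and 12 lower in KO. Sept3, a septin of the cytoskeleton, fell from 239 to 19.0 CPM in WT (log2 -3.65) and from 251 to 24.1 CPM in KO (log2 -3.38). Gcsam had a log2 change of -2.75 in WT. Etv6, a repressor of the ETS family, rose by 1.63 in WT and 1.53 in KO. Cd8a, which marks resident cDC1 in tissue and is also a T cell gene, rose from 1.59 to 57.4 CPM in WT and from 1.89 to 40.5 CPM in KO. The interaction test called 4 of the 23 genes, where 4.26% of all genes were called, and Gcsam had the smallest p (interaction 0.71, edgeR FDR 0.000248). That count was 1 without untreated KO replicate 1 or Jurkat 4 h WT replicate 2, and 2 without untreated WT replicate 2 or in a fit of the compared groups alone.

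**Figure D4:**
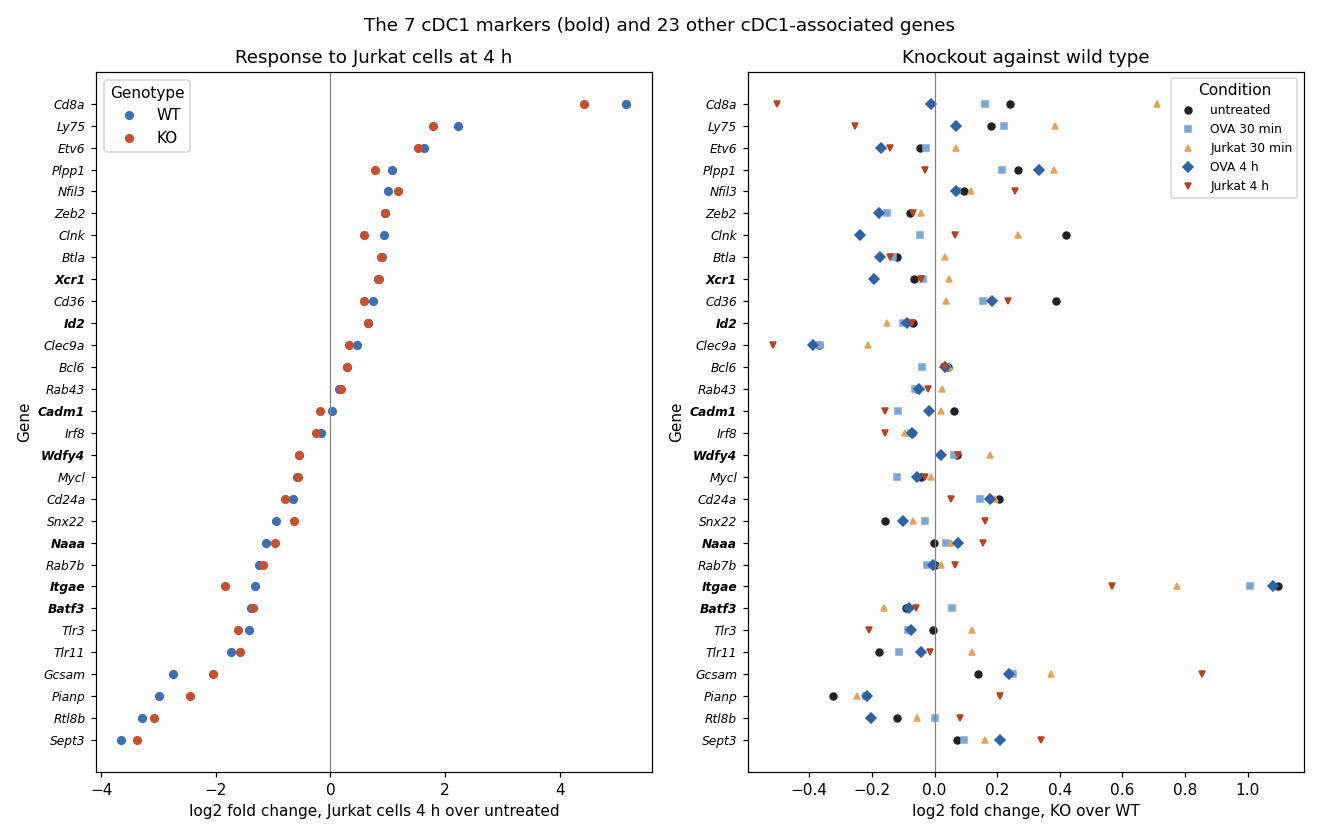
Log2 fold changes of the 7 members and the 23 other cDC1-associated genes: left, 4 h of apoptotic Jurkat cells over untreated cells in WT and KO; right, KO over WT in the 5 conditions. On the right, Itgae lies at 0.57 to 1.10 and Clec9a at -0.52 to -0.21, each called in all 5 conditions. Id2, Wdfy4, Irf8, Nfil3, Mycl, Zeb2, Cd24a, Cd36, Gcsam and Sept3 also lie on 1 side of 0 in all 5, but are not called in each.

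Lists of other cells moved together with these changes. After 4 h of Jurkat cells all 7 genes of mature dendritic cells rose, from a sum of 569 to 615 CPM to 7911 to 8520 CPM in WT and from 436 to 442 to 8030 to 8460 CPM in KO. In WT 8 of 10 cDC2 genes fell (sum 1710 to 1765 and 883 to 946 CPM). These counts stand beside 79.5% (WT) and 78.5% (KO) of all genes called. The sum of 8 plasmacytoid genes rose, from 2244 to 2269 CPM to 2712 to 3286 CPM in WT and from 1997 to 2158 to 2237 to 2509 CPM in KO. The single plasmacytoid genes went both ways. With total counts 3 of the 8 were called higher and 4 lower in WT, and 2 higher and 4 lower in KO. The sum of Flt3, Itgax and Zbtb46, genes of dendritic cells in general, fell from 1104 to 1167 CPM to 649 to 703 CPM in WT. In KO it fell from 1121 to 1164 CPM to 709 to 780 CPM. The T-lineage sum rose to 187 to 229 CPM in WT and to 154 to 177 CPM in KO, and 11 of its 19 genes had been under 1 CPM in untreated cells. The part of maturation, of a change in cell makeup or of Jurkat reads in the members' changes was not tested.

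The members' patterns were also set beside those of all genes with at least 5 CPM, by Pearson correlation of log2(CPM + 1) over the 10 group means, given as a description. These means share libraries, and the 2 Jurkat 4 h groups dominate them. The genes most like Itgae were 2900026A02Rik (r = 0.986), Myo6 (0.980) and Vwf (0.979), and most like Xcr1 were Cd83, Ildr1 and Rbbp8 (0.994 each). Batf3 was most like Exosc8 and Fut7 (0.998 each), Naaa most like Iqce (0.999), Id2 most like Emc4 (0.992), Wdfy4 most like Bcl2l13 (0.985) and Cadm1 most like Pknox1 (0.913). Over the 24 libraries without Jurkat 4 h, the gene most like Itgae was again 2900026A02Rik (0.959), then Tgfbi (0.954) and St6gal1 (0.951), while the one most like Xcr1 was Rbpj (0.832). Between members, Xcr1 and Naaa had r = -0.99, Batf3 and Naaa 0.97, and Xcr1 and Id2 0.91 over the 10 means. Over the 24 libraries the pairs ran only from -0.76 (Id2 and Wdfy4) to 0.66 (Itgae and Wdfy4).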

How the data were processed

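The deposited table held whole-number counts for each gene, on build mm10. Per the submitters' processing notes the tools were STAR 2.5, Subread, featureCounts 1.5.0-p1 and DESeq2, and per the labels' protocols the library kit was TruSeq RNA v2. The sources used here do not state the annotation, the strand setting or the handling of multiply mapped and human reads. Genes were kept with filterByExpr (14808 of 25611) and scaled with TMM, and 1 model with a mean per group was fitted to all 30 libraries with edgeR 4.0.16 in R 4.3.3 (glmQLFit, glmQLFTest, two-sided). An FDR under 0.05 over all genes made a call; SE is the size of the log2 change over the root of F. In all, 21 contrasts were read. Levels per kilobase used exon lengths of GENCODE M21.

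The members and gene lists were chosen with earlier results of these data known. All 7 members are named. Of the 23 other cDC1-associated genes, those named for a change were picked from the up to 4 called per contrast by smallest p. Others that met this rule, such as Rtl8b, Cd24a, Pianp and Tlr11, are left out of the text. By likeness up to 3 genes with the highest r are given. Irf8 and Clec9a levels, Haspin and the marker lists are given beside these. Alternatives were total counts, DESeq2 1.42.0, no or a stricter filter (5 CPM in 3 libraries), a fit of the compared groups alone, the replicate number as a block and leaving out each library. Same-numbered libraries deviated together (every pair's correlation above 0.1) in 3 of 17 contrasts, so the numbers were not taken to pair the libraries.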

Additional observations from a re-analysis of the deposited data

Results flagged for a closer look

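The response of Itgae to 4 h of apoptotic Jurkat cells differed between the genotypes. The difference, KO minus WT, was -0.53 on the log2 scale (SE 0.143; edgeR quasi-likelihood interaction test, FDR 0.0311 over all genes). It was negative without any 1 of the 12 libraries (-0.61 to -0.41) and was called in 4 of those 12 fits.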

How the results depend on the processing

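Itgae kept its call, higher in KO in all 5 conditions, under each alternative run and with each library left out. With total counts in place of TMM, the log2 change of Cadm1 turned from above to below 0 in 3 comparisons. For WT Jurkat cells at 4 h over untreated it was -0.37, where TMM scaling gave no call. For Jurkat cells over OVA at 4 h it was -0.11 in WT, not called (edgeR FDR 0.0666), and -0.20 in KO. The same scaling left 1 member called between KO and WT after 4 h of OVA, in place of 2. A fit of the compared groups alone left 1 member called in place of 3 between KO and WT after 30 min of Jurkat cells, 1 in place of 2 for WT Jurkat cells at 30 min over untreated, and 1 in place of 2 for WT Jurkat cells over OVA at 30 min. Leaving out each library in turn gave 1 to 3 members called for KO against WT after 30 min of Jurkat cells, 1 to 2 after 4 h of Jurkat cells and 1 to 2 after 4 h of OVA. It gave 1 to 2 for WT Jurkat cells at 30 min over untreated, 2 to 3 for KO, 3 to 5 for WT OVA at 4 h and 3 to 4 for KO. Jurkat cells over OVA gave 1 to 2 at 30 min in each genotype and 6 to 7 at 4 h in KO, and the interaction of Jurkat cells at 4 h 0 to 1. The causes were not tested. With the replicate block all 147 results of the members kept their call, and no called result changed direction. In the 17 contrasts the correlations of same-numbered libraries ran from -0.31 to 0.60. Limits: 3 libraries a group leave changes under about 0.2 on the log2 scale near the threshold, and the lowest count of a member was 180.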
